A study of Mus musculus with 12 samples.

Results

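The mitochondrially encoded genes were taken as every gene whose symbol begins with mt-. There are 37 of them among the 55416 genes of the count tables: 13 that encode proteins, 2 ribosomal RNA genes and 22 transfer RNA genes. The rule uses gene names alone and no measured value. RNA was sequenced from gastrocnemius, a calf muscle, and from hypothalamus, the brain region that controls feeding, of 3 cachectic and 3 normal male BALB/c mice, which gave 12 libraries and 3 in each of 4 groups. The cachectic mice carried tumours of CT-26, a colon carcinoma line of mouse origin that was placed under the skin of the abdomen, and the normal mice received no tumour. All mice were labelled as 7 weeks old, the age stated for the tumour injection. Tissue was collected on day 25 after injection, a time stated for the tumour-bearing mice, and these mice had weighed 7 to 10% less than healthy mice by day 10. The model thus rests on 1 implanted tumour line in 1 sex, and cachexia cannot be told apart from the presence of the tumour itself.

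Library totals ran from 26015741 to 52535761 expected counts, the fractional read assignments that RSEM gives each gene. Values called CPM are counts scaled to a common library size: by edgeR's TMM factors for single genes, and by library totals for marker sums and for levels per kilobase. Summed CPM of 5 skeletal muscle genes was 47290 to 56170 in cachectic gastrocnemius and 61090 to 79910 in normal gastrocnemius, against 17.2 to 29.0 over the 6 hypothalamus libraries. A list of 6 hypothalamic genes summed to 1773 to 1980 CPM in cachectic and 1231 to 1561 CPM in normal hypothalamus, and to at most 1.01 CPM in gastrocnemius, so the markers followed the tissue labels.

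Mitochondria keep a small circular genome that is copied many times per cell. It is transcribed from both strands into long precursors by the polymerase Polrmt with the factors Tfam and Tfb2m, and the precursors are then cut, largely at the transfer RNAs that lie between the other genes. The proteins it encodes are core subunits of the respiratory chain, namely the proton pumps complex I, complex III and complex IV, and of complex V, the ATP synthase. All other subunits, and the proteins that express this genome, are encoded in the nucleus. Skeletal muscle and neurons both depend on oxidative phosphorylation, and loss of mitochondrial content is a known feature of wasting muscle.

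Several of these genes have near-identical copies in the nuclear genome, which bears on how they were counted. At chr1:24611535-24616197 (GRCm38, minus strand, 4663 bases) the GENCODE M21 annotation lists 7 unprocessed pseudogenes that copy 7 neighbouring protein genes of the mitochondrial genome with at least 99% identity. For 5 of the 7, the aligned part was 100% identical. The sequences below, from the GENCODE M21 transcripts, show how little there is to separate a gene from its copy. Capitals mark the base that differs in the mt-Nd3 and mt-Co1 pairs, and the bases of mt-Co2 beyond the end of its annotated copy.
mt-Nd3 (chrM:9459-9476, plus strand): atTaacctgtacactgtt
Gm28438 (chr1:24613102-24613119, minus strand): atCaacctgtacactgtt
mt-Co1 (chrM:6390-6408, plus strand): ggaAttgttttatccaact
Gm29216 (chr1:24616170-24616188, minus strand): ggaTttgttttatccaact
mt-Co2 (chrM:7667-7696, plus strand): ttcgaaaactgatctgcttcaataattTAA
Gm28661 (chr1:24614885-24614911, minus strand): ttcgaaaactgatctgcttcaataatt
The substitution is T3C between mt-Nd3 and Gm28438 and A1066T between mt-Co1 and Gm29216, with positions counted from 1 at the 5′ end of the mt- gene and the mt- base given first. Each is the 1 mismatch in the aligned part of its pair. The alignment to mt-Co1 began at base 10 of Gm29216.

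Most counts of mt-Co2, mt-Co3 and mt-Atp6 stood under the names of these copies. Of the counts of mt-Co2 and Gm28661 together, 0.559 to 1.03% were assigned to mt-Co2 over the 12 libraries. The share on the mt- gene was 2.56 to 9.75% for mt-Co3 with Gm28437 and 5.35 to 11.3% for mt-Atp6 with Gm10925. It was 26.6 to 48.7% for mt-Nd3 with Gm28438 and 23.3 to 44.1% for mt-Nd4l with Gm10222. The other two pairs kept most counts on the mt- gene: 87.3 to 94.6% for mt-Co1 with Gm29216, which copies its last 483 aligned bases, and 99.999 to 100% for mt-Nd4 with Gm28439. In gastrocnemius the share also differed with condition for some pairs, in both directions. For mt-Atp6 it was 5.35 to 6.12% in cachectic against 6.56 to 9.53% in normal muscles, without overlap. With cachectic muscles first, it was 87.3 to 88.0% against 88.6 to 92.7% for mt-Co1, also without overlap. For mt-Co2 it was 0.559 to 0.748% against 0.747 to 1.03%, which touch. mt-Nd4l went the other way, at 34.0 to 44.1% in cachectic against 23.3 to 34.1% in normal muscles, which touch. The shares of mt-Co3 and mt-Nd3 overlapped. In hypothalamus the share of mt-Atp6 was 5.67 to 6.90% in cachectic against 7.64 to 11.3% in normal mice, again without overlap. Those of the other pairs overlapped there. A further 10 copies, all at most 97.6% identical, held at most 49.3 counts in any library. Reads from a gene and from an identical copy cannot be told apart, so values below are given for the mt- gene alone and with its copy added. Adding the copies was chosen after the counts had been seen.

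**Figure D1:**
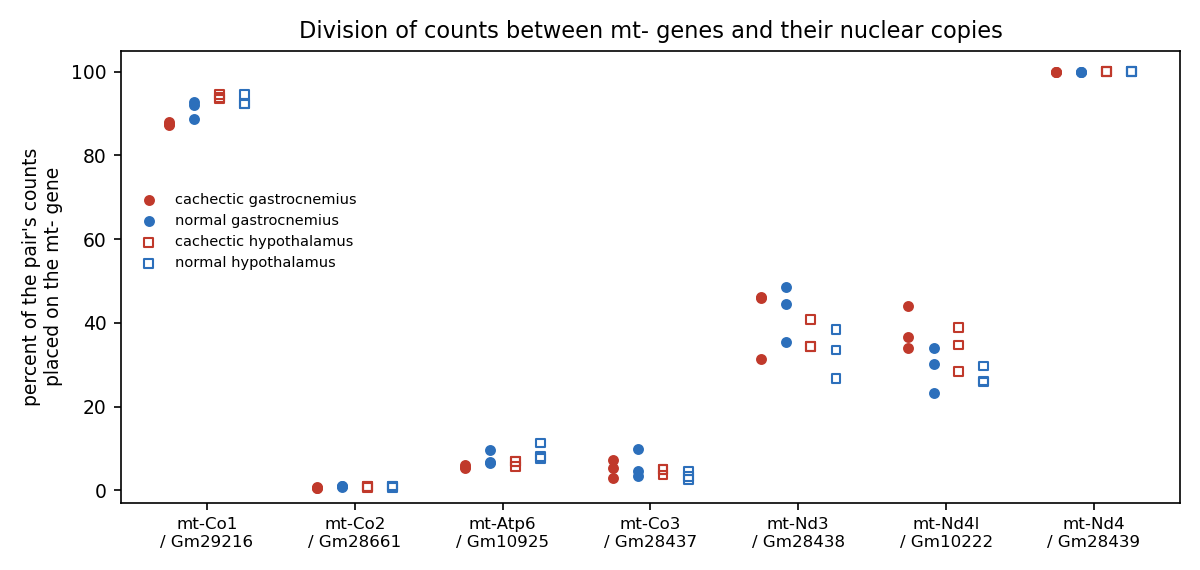
Percent of the counts of each pair that were placed on the mt- gene (vertical axis) for the 7 genes with a near-identical nuclear copy; each point is 1 library, filled circles gastrocnemius and open squares hypothalamus, red cachectic and blue normal. mt-Co2, mt-Atp6 and mt-Co3 lie under 12% in every library, mt-Nd3 and mt-Nd4l between 23.3 and 48.7%, and mt-Co1 and mt-Nd4 above 87%.

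The 22 transfer RNA genes could not be measured. They are 59 to 75 bases long, as for the leucine transfer RNA gene mt-Tl1, shown whole to set its length beside that of a sequenced fragment.
mt-Tl1 (chrM:2676-2750, plus strand): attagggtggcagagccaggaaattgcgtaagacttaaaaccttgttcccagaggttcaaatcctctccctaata
The mean sequenced fragment was 206.8 to 251.3 bases, and the effective length, the number of positions at which such a fragment can start, was 0 for each of the 22 in every library. Over all 12 libraries they held 4 counts, in 2 of the genes and 3 libraries, with at most 2 in a library. None passed edgeR's filter on low counts, and no statement on their abundance is possible. All 13 protein genes and both ribosomal RNA genes passed the filter in both tissues.

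The mitochondrially encoded share of the transcriptome was lower in cachectic than in normal gastrocnemius. Without the copies, the 37 genes took 8.26, 10.1 and 11.1% of all expected counts in cachectic mice 1, 2 and 3, against 15.2, 13.5 and 19.7% in normal mice 1, 2 and 3. With the copies the shares were 13.1, 15.8 and 18.1% against 23.2, 21.1 and 31.3%. Every cachectic muscle lay below every normal muscle on both counts, and normal mouse 3 stood highest. The means with copies were 15.7% ± 2.48 in cachectic and 25.2% ± 5.40 in normal gastrocnemius (SD, n = 3 each).

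In hypothalamus the same share with copies was 11.95, 11.2 and 12.1% in cachectic mice, against 13.1, 12.2 and 12.15% in normal mice. The means were 11.8% ± 0.497 in cachectic and 12.5% ± 0.523 in normal hypothalamus (SD, n = 3 each), and the groups overlapped. With copies every gastrocnemius library stood above every hypothalamus library, narrowly for cachectic mouse 1, and without copies the tissues overlapped. In bulk tissue, fewer cells rich in mitochondria and less mitochondrial RNA per cell cannot be told apart.

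**Figure D2:**
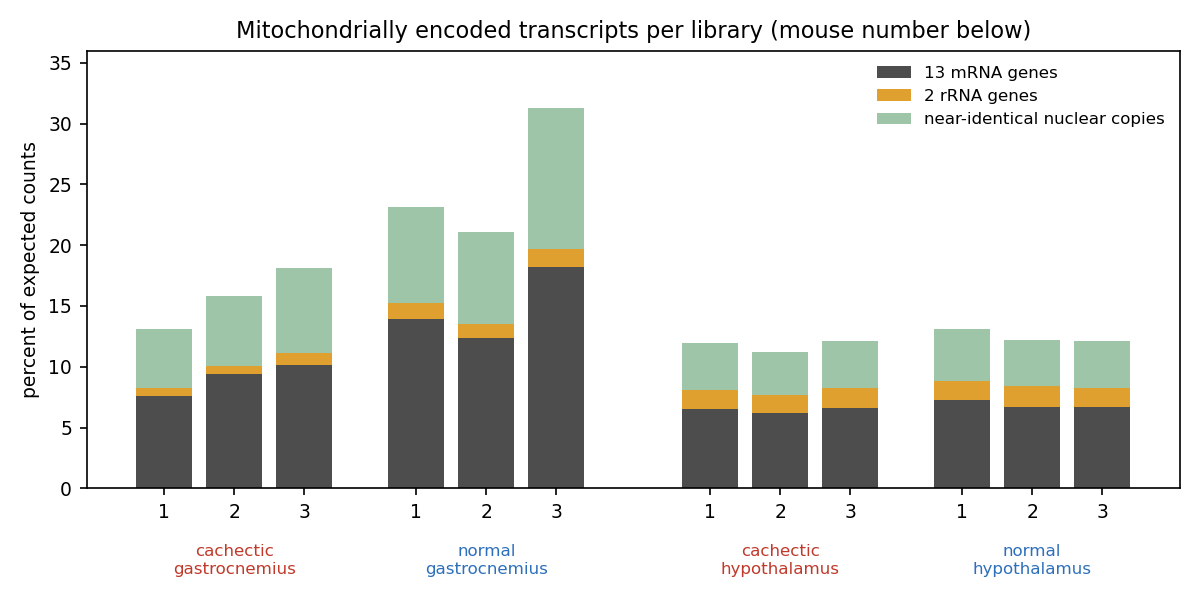
Percent of all expected counts (vertical axis) in the 13 mRNA genes, the 2 rRNA genes and the near-identical nuclear copies, stacked, for each of the 12 libraries; the number under a bar is the mouse. With copies the cachectic gastrocnemius libraries reach 13.1 to 18.1% and the normal ones 21.1 to 31.3%, while all 6 hypothalamus libraries lie between 11.2 and 13.1%.

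The order of the genes was much the same in all 4 groups. Levels between genes were compared as CPM with copies per kilobase of annotated length. mt-Co2, a catalytic subunit of complex IV, was highest in every group, at 27038 ± 5334 in cachectic and 43735 ± 10774 in normal gastrocnemius, and at 18877 ± 964 in cachectic and 20370 ± 590 in normal hypothalamus (SD, n = 3 each). mt-Co1, mt-Co3 and mt-Atp6 shared the next 3 places in each group. Their means in cachectic gastrocnemius were 22731 ± 1754, 24455 ± 5674 and 25317 ± 3688, which do not differ beyond their spread. mt-Nd1, mt-Cytb and mt-Nd4 followed in every group.

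The low end of the order held mt-Nd4l, mt-Atp8, mt-Nd5 and mt-Nd6, joined in gastrocnemius by mt-Rnr1. mt-Nd4l was the lowest of the 13 in every group, at 1357 ± 423 in cachectic and 3950 ± 2010 in normal gastrocnemius per kilobase. Effective length was only 56.6 to 94.3 bases for mt-Nd4l and 6.68 to 20.4 bases for mt-Atp8 over the 12 libraries. The low places of these 2 genes thus hold for annotated length and need not hold for effective length. The libraries were prepared for mRNA, so the levels of ribosomal RNAs may not match their abundance in tissue. mt-Rnr1, the small ribosomal RNA, had 1608 ± 411 per kilobase in cachectic and 3335 ± 650 in normal gastrocnemius, but 6066 ± 334 in cachectic and 6718 ± 387 in normal hypothalamus.

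Among the 13 mRNAs, 3 of the 4 respiratory complexes took overlapping shares in the 2 conditions. With copies, complex IV genes held 48.8% ± 3.35 of the 13 in cachectic and 49.3% ± 0.585 in normal gastrocnemius. Complex I genes held 30.1% ± 2.33 and 31.1% ± 0.571, in the same order of groups, and complex III 9.19% ± 0.693 and 9.13% ± 0.278. Complex V did not overlap, at 11.8, 12.4 and 11.4% in cachectic muscles against 10.1, 10.2 and 10.9% in normal muscles. In hypothalamus the complex V share was 11.2, 10.4 and 10.5% in cachectic mice against 11.4, 11.03 and 10.3% in normal mice, and overlapped. With the mt- genes alone, complex V made up 1.48 to 1.73% in cachectic and 1.54 to 2.56% in normal gastrocnemius, with overlap. These shares do not depend on how libraries are scaled, and no test was made on them.

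In gastrocnemius, edgeR's quasi-likelihood test with Benjamini-Hochberg adjustment called 11 of the 13 mRNAs and both ribosomal RNAs lower in cachectic mice, with the mt- genes alone. With copies added it again called 11 of 13 and both ribosomal RNAs. All 13 log2 changes, cachectic over normal, were below 0 either way, with a median of -1.06 alone and -0.91 with copies. Of all 14265 genes tested in this tissue, 38.0% were called, 18.3% lower and 19.6% higher, with a median log2 change of -0.00. The 3 cachectic muscles were all below the 3 normal ones for 10 of 13 mRNAs alone and for 12 with copies, against 25.3% of all genes.

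**Figure D3:**
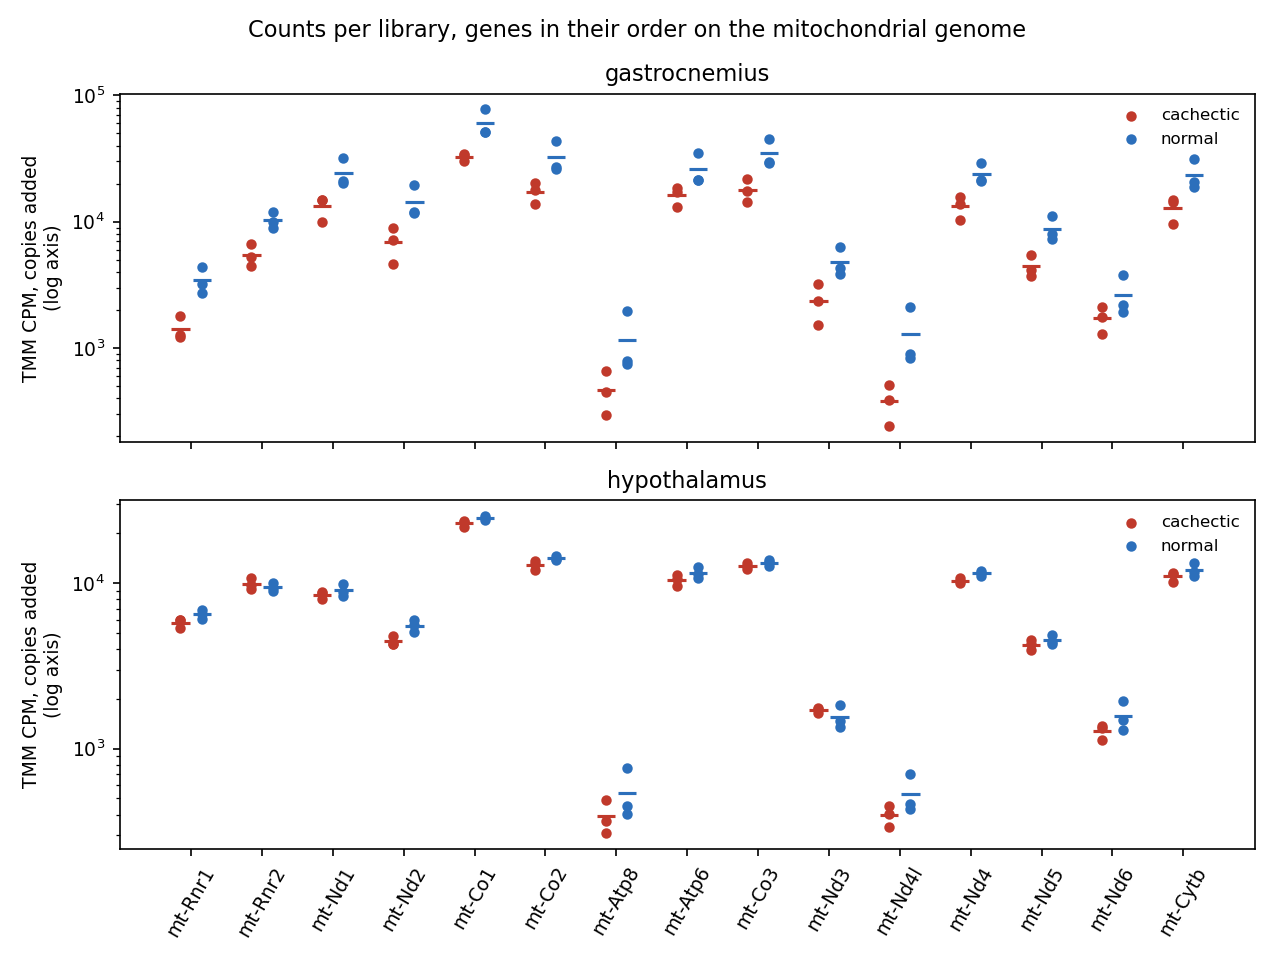
TMM-scaled CPM with nuclear copies added (vertical log axis) of the 2 rRNA and 13 mRNA genes, in their order on the mitochondrial genome; points are single libraries, bars group means, red cachectic and blue normal. In gastrocnemius all genes but mt-Nd6 keep the 3 cachectic libraries under the 3 normal ones, while in hypothalamus most genes overlap.

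Complex I, which takes electrons from NADH, has 7 genes here, and 6 of them fell with the mt- genes alone and with copies. mt-Nd1 (chrM:2751-3707) had 10040, 14910 and 14880 CPM in cachectic muscles, against 21080, 20120 and 31860 CPM in normal muscles. Its log2 change was -0.88 ± 0.29 (SE, edgeR adjusted p = 0.0412), and the groups did not overlap. mt-Nd2 (chrM:3914-4951) had 4614, 8914 and 7220 CPM in cachectic against 12000, 11690 and 19560 CPM in normal muscles, a log2 change of -1.06 ± 0.32 (edgeR adjusted p = 0.0311). Cachectic mouse 1 was lowest for both genes and normal mouse 3 highest.

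mt-Nd4 (chrM:10167-11544), whose copy took almost no counts, had 10350, 15610 and 13890 CPM in cachectic against 21520, 21100 and 28950 CPM in normal muscles. It fell by 0.85 ± 0.26 on the log2 scale (edgeR adjusted p = 0.0336). mt-Nd5 (chrM:11742-13565), the longest mRNA at 1824 bases, had 3736, 5488 and 4126 CPM in cachectic against 7978, 7314 and 11160 CPM in normal muscles. Its log2 change was -0.99 ± 0.25 (edgeR adjusted p = 0.0160), which is 1.98-fold lower. For both genes every cachectic muscle was below every normal one.

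mt-Nd3 (chrM:9459-9806) with its copy had 1517, 2359 and 3193 CPM in cachectic against 4266, 3887 and 6316 CPM in normal muscles, without overlap. The log2 change was -1.03 ± 0.31 with the copy (edgeR adjusted p = 0.0296) and -1.11 ± 0.35 alone (edgeR adjusted p = 0.0378), where the groups overlapped. mt-Nd4l (chrM:9877-10173) with its copy had 239.7, 513.5 and 388.1 CPM in cachectic against 889.6, 836.6 and 2110 CPM in normal muscles. Its change was the largest of the 13 with copies, at -1.75 ± 0.41 (edgeR adjusted p = 0.0117), against -1.31 ± 0.28 alone (edgeR adjusted p = 0.00755).

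mt-Nd6 (chrM:13552-14070) is the 1 mRNA gene on the other strand, and 14 of its bases overlap mt-Nd5. It had 1287, 2131 and 1771 CPM in cachectic against 2179, 1917 and 3814 CPM in normal muscles, with overlap. The log2 change of -0.61 ± 0.30 was not called (edgeR adjusted p = 0.145). The library kit keeps strand, but whether counting used it is not stated, so reads antisense to this gene cannot be told apart from its own.

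Cytochrome b, the 1 mitochondrially encoded subunit of complex III, comes from mt-Cytb (chrM:14145-15288). It had 9538, 14920 and 14430 CPM in cachectic against 20480, 19000 and 31430 CPM in normal muscles, without overlap. The log2 change was -0.87 ± 0.30 (edgeR adjusted p = 0.0487), close to the threshold of 0.05.

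The 3 complex IV genes encode the catalytic core of cytochrome c oxidase, and with copies all 3 fell by similar amounts. mt-Co1 (chrM:5328-6872) with its copy had 30320, 33850 and 34210 CPM in cachectic against 51390, 51320 and 77640 CPM in normal muscles, a log2 change of -0.87 ± 0.27 (edgeR adjusted p = 0.0352). mt-Co2 (chrM:7013-7696) with its copy had 13860, 17830 and 20100 CPM against 26150, 27340 and 43590 CPM, cachectic first, and changed by -0.91 ± 0.29 (edgeR adjusted p = 0.0386). mt-Co3 (chrM:8607-9390) with its copy had 14460, 17420 and 21690 CPM in cachectic against 29980, 29180 and 45360 CPM in normal muscles, and changed by -0.96 ± 0.28 (edgeR adjusted p = 0.0282). None of the 3 overlapped between conditions.

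Counted alone, the same 3 genes differed more from each other. mt-Co2 alone had 103.7, 100.6 and 112.3 CPM in cachectic against 252.2, 280.9 and 325.5 CPM in normal muscles, a change of -1.44 ± 0.14 (edgeR adjusted p = 0.000387), which was the largest and the most closely repeated of the 13. That value rests on under 1.1% of the reads the pair received. mt-Co3 alone had 1029, 518.0 and 1177 CPM in cachectic against 2923, 996.7 and 2095 CPM in normal muscles, with overlap, and was not called at -1.14 ± 0.42 (edgeR adjusted p = 0.0609). mt-Co1 alone changed by -0.92 ± 0.27 (edgeR adjusted p = 0.0266).

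The 2 complex V genes encode membrane subunits of the ATP synthase and share sequence: the last 43 bases of mt-Atp8 (chrM:7766-7969) are the first of mt-Atp6 (chrM:7927-8607), in capitals here.
mt-Atp8/mt-Atp6 (chrM:7917-7969, plus strand): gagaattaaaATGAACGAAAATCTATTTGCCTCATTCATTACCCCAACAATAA
Reads within those bases cannot be told apart between the genes. mt-Atp6 with its copy had 13030, 18340 and 17100 CPM in cachectic against 21510, 21270 and 35100 CPM in normal muscles, without overlap, and its change of -0.68 ± 0.28 was not called (edgeR adjusted p = 0.0900). Alone it was called at -1.17 ± 0.35 (edgeR adjusted p = 0.0304), on 5.35 to 9.53% of the pair's counts. mt-Atp8 had 295.3, 662.0 and 446.3 CPM in cachectic against 751.2, 784.0 and 1955 CPM in normal muscles, and fell by 1.31 ± 0.42 on the log2 scale (edgeR adjusted p = 0.0398).

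The ribosomal RNAs fell with the mRNAs. mt-Rnr1 (chrM:70-1024), the RNA of the small mitochondrial ribosomal subunit, had 1227, 1276 and 1777 CPM in cachectic against 2717, 3201 and 4407 CPM in normal muscles, a log2 change of -1.27 ± 0.25 (edgeR adjusted p = 0.00505). mt-Rnr2 (chrM:1094-2675), that of the large subunit, had 4475, 5279 and 6691 CPM in cachectic against 9937, 8946 and 11990 CPM in normal muscles, a change of -0.91 ± 0.23 (edgeR adjusted p = 0.0168). Neither overlapped. Without copies, the 2 ribosomal RNAs held 8.25, 6.92 and 9.32 counts per 100 counts of the 13 mRNAs in cachectic muscles, against 9.02, 9.08 and 7.94 in normal muscles. With copies the ratio was 5.03, 4.285 and 5.52 in cachectic against 5.75, 5.63 and 4.84 in normal muscles. Both ratios overlapped between conditions.

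**Figure D4:**
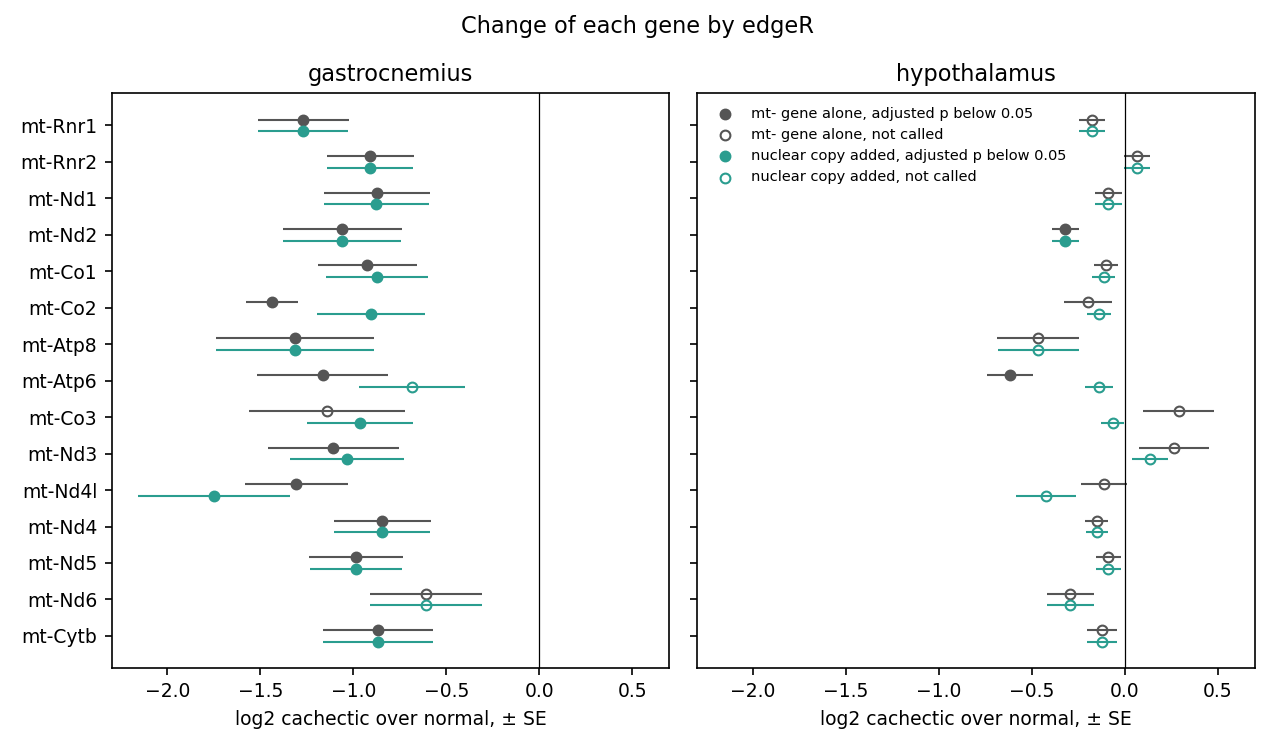
Log2 change, cachectic over normal, with its SE (horizontal axis) of each gene by edgeR, for the mt- gene alone (grey) and with its nuclear copy added (green); filled points have an adjusted p below 0.05. In gastrocnemius all points lie below 0 and mt-Co2, mt-Atp6 and mt-Nd4l shift most when copies are added; in hypothalamus most points lie within 0.32 of 0.

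These calls stood close to the threshold and depended on single libraries. With any 1 of the 6 gastrocnemius libraries left out, all 13 mRNAs stayed below 0. The number called with the mt- genes alone was then 2 without cachectic mouse 1, 3 without cachectic mouse 3, 5 without normal mouse 1, 3 without normal mouse 3, and 9 and 10 without normal and cachectic mouse 2. With copies added those numbers were 1, 4, 3, 2, 6 and 11 for the same 6 libraries. Calls over all genes moved as well. Without copies, 2616 of 14265 genes were called lower with all libraries kept. For the same 6 libraries left out, 1995, 2526, 1779, 2051, 1845 and 2671 were called lower, of 14544 to 14659 tested. mt-Rnr1, and mt-Nd4l both alone and with its copy, were called in all 6 cases, as was mt-Co2 alone, but mt-Co2 with its copy was called in 1 of 6.

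Scaling changed the size of the shift and not its side. With libraries scaled to their totals, 8 of 13 mRNAs were called and their median was -0.86, while the median of all genes moved to 0.20. With TPM, the length-normalised abundance that RSEM reports, tested by limma on log2(TPM + 0.5), 2 were called, with a median of -0.61 against 0.28 for all genes. Over all genes, 2616 were called lower and 2801 higher by the first test, 1662 and 3957 with library totals, and 1018 and 4473 with TPM. Relative to the median of all genes, the median of the 13 was -1.06, -1.06 and -0.89 under these 3 settings.

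The shortest mRNAs are close to the sequenced fragments in length. mt-Atp8 is 204 bases long and mt-Nd4l 297, and mean fragments were 243.5, 227.3 and 251.3 bases in cachectic and 243.2, 242.5 and 207.9 bases in normal gastrocnemius. The muscle library with the shortest fragments, normal mouse 3, had the highest CPM of mt-Atp8 and of mt-Nd4l with its copy. Of the 13 mRNAs with copies, mt-Atp8 made up 0.261, 0.433 and 0.291% in cachectic and 0.341, 0.363 and 0.577% in normal gastrocnemius. Without normal mouse 3, mt-Nd4l with its copy was still called, at -1.19, while mt-Atp8 was not called, at -0.72. mt-Atp8 also lost its call without cachectic mouse 1 or 3. The part of fragment length in these 2 changes was not tested.

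**Figure D5:**
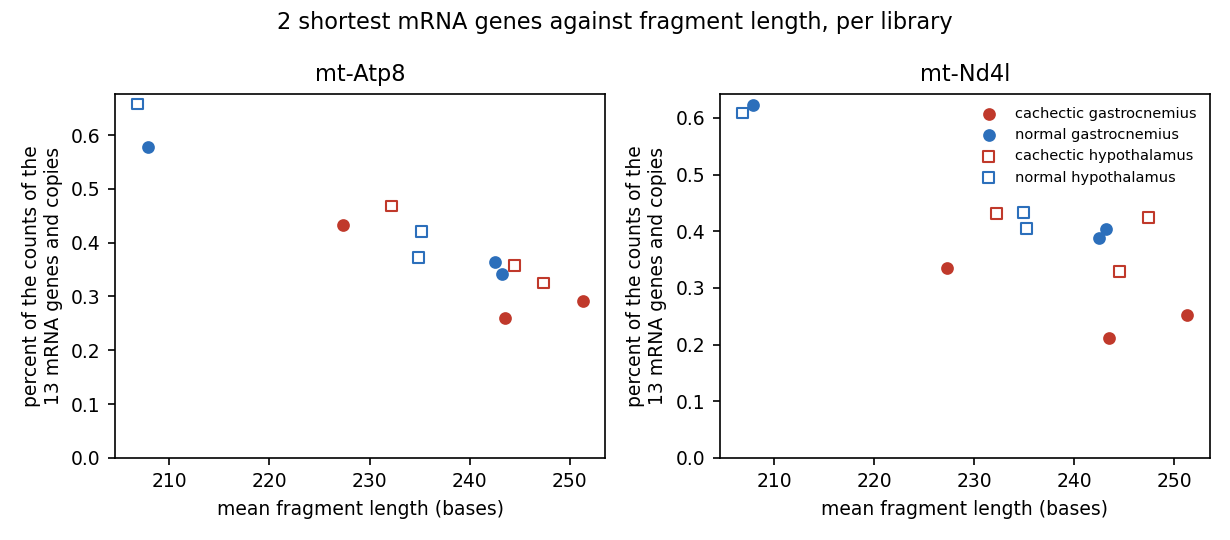
Share of mt-Atp8 (left) and mt-Nd4l (right) in the counts of the 13 mRNA genes and copies, in percent (vertical axis), against the mean fragment length in bases (horizontal axis); each point is 1 library, filled circles gastrocnemius and open squares hypothalamus, red cachectic and blue normal. The highest shares of both genes belong to the libraries with the shortest fragments, normal gastrocnemius 3 at 207.9 bases and normal hypothalamus 1 at 206.8 bases.

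In hypothalamus the mitochondrially encoded genes moved little. edgeR called 2 of the 13 mRNAs lower alone, mt-Nd2 and mt-Atp6, and 1 with copies, mt-Nd2; neither ribosomal RNA was called. Of the 17961 genes tested there, 8.77% were called, 4.83% lower and 3.94% higher. The 3 cachectic libraries were all below the 3 normal ones for 4 of the 13 mRNAs, alone and with copies, against 15.6% of all genes. The median log2 change of the 13 was -0.12 alone and -0.14 with copies, against -0.00 over all genes.

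mt-Nd2 had 4261, 4270 and 4771 CPM in cachectic against 5938, 5057 and 5600 CPM in normal hypothalamus, without overlap. It fell by 0.32 ± 0.07 on the log2 scale (edgeR adjusted p = 0.0249) and was called in 3 of the 6 tests with 1 library left out. The call was lost without cachectic mouse 1, cachectic mouse 2 or normal mouse 3. mt-Atp6 alone had 634.5, 655.4 and 729.2 CPM in cachectic against 951.6, 1286 and 858.5 CPM in normal hypothalamus, a change of -0.62 ± 0.12 (edgeR adjusted p = 0.0141) that was not called without cachectic mouse 1. With its copy it had 11190, 9622 and 10560 CPM against 12450, 11390 and 10670 CPM, cachectic first. There the groups overlapped and the change of -0.14 ± 0.08 was not called (edgeR adjusted p = 0.294).

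The other complex I genes of hypothalamus were not called. mt-Nd4 had 10280, 9934 and 10720 CPM in cachectic against 11870, 11450 and 11010 CPM in normal hypothalamus, without overlap, at -0.15 ± 0.06 (edgeR adjusted p = 0.148). mt-Nd1 had 8724, 7993 and 8776 CPM against 9898, 8330 and 8847 CPM, cachectic first, at -0.09 ± 0.07 (edgeR adjusted p = 0.506). mt-Nd5 changed by -0.09 ± 0.07 and mt-Nd6 by -0.29 ± 0.13, and both overlapped between conditions. mt-Nd3 with its copy was the 1 mRNA above 0, at 0.14 ± 0.10 (edgeR adjusted p = 0.419), with 1633, 1739 and 1748 CPM in cachectic and 1470, 1350 and 1842 CPM in normal hypothalamus. mt-Nd4l with its copy was at -0.42 ± 0.16 (edgeR adjusted p = 0.132), and normal mouse 1, the hypothalamus library with the shortest fragments, had its highest value, 706.1 CPM.

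With copies, the complex IV genes of hypothalamus stood at -0.11 ± 0.06 for mt-Co1, -0.14 ± 0.06 for mt-Co2 and -0.06 ± 0.06 for mt-Co3, none called. mt-Co3 alone was at 0.29 ± 0.19, so its direction turned with the copy. mt-Nd3 alone was at 0.26 ± 0.19 and was called higher without normal mouse 3, at 0.55. mt-Cytb had 11520, 10180 and 11290 CPM in cachectic against 13220, 11030 and 11660 CPM in normal hypothalamus, at -0.12 ± 0.08 (edgeR adjusted p = 0.374). mt-Atp8 was at -0.46 ± 0.22 (edgeR adjusted p = 0.219) with overlap.

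The 2 ribosomal RNAs of hypothalamus went different ways without passing the test. mt-Rnr1 had 5965, 5320 and 5945 CPM in cachectic against 6455, 6908 and 6095 CPM in normal hypothalamus, without overlap, at -0.18 ± 0.07 (edgeR adjusted p = 0.144). mt-Rnr2 had 9694, 9214 and 10640 CPM against 9296, 9976 and 8978 CPM, cachectic first, at 0.07 ± 0.07 (edgeR adjusted p = 0.613). mt-Rnr1 counts were 61.5, 57.7 and 55.9% of those of mt-Rnr2 in cachectic against 69.4, 69.2 and 67.9% in normal hypothalamus, a ratio free of library scaling whose groups did not overlap. In gastrocnemius that ratio was 27.4, 24.2 and 26.6% in cachectic against 27.3, 35.8 and 36.7% in normal mice, and the groups overlapped by 1 library.

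Whether cachexia shifted these genes differently in the 2 tissues was tested as the gastrocnemius change minus the hypothalamus change over all 12 libraries. All 13 mRNAs were below 0, with a median of -0.84 alone and -0.78 with copies, against -0.06 over all genes. edgeR called 5 mRNAs lower in this contrast alone, 4 with copies, and both ribosomal RNAs in each case. Of the 18746 genes tested, 26.4% were called and 14.0% were called lower.

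mt-Co1, mt-Nd3 and mt-Nd5 were called alone and with copies: with copies the differences were -0.77 (edgeR adjusted p = 0.0480), -1.18 (edgeR adjusted p = 0.0243) and -0.91 (edgeR adjusted p = 0.0208). mt-Rnr1 differed by -1.11 ± 0.27 (edgeR adjusted p = 0.00854) and mt-Rnr2 by -0.99 ± 0.25 (edgeR adjusted p = 0.0104). mt-Co2 and mt-Nd4l were called alone, at -1.26 ± 0.21 and -1.21 ± 0.33, and not with copies, at -0.78 (edgeR adjusted p = 0.0712) and -1.34 (edgeR adjusted p = 0.0591). mt-Co3 was called with its copy, at -0.91 (edgeR adjusted p = 0.0330), and not alone. With TPM and limma the differences of mt-Co1 (adjusted p = 0.0884), mt-Nd3 (adjusted p = 0.0971) and mt-Nd5 (adjusted p = 0.0712) were not called. With 1 of the 12 libraries left out and the mt- genes alone, mt-Nd3 was called in 3 of 12 tests, mt-Co1 in 7 and mt-Nd5 in 9. mt-Nd1, mt-Nd2, mt-Nd4, mt-Nd6, mt-Cytb, mt-Atp6 and mt-Atp8 were not called in either count, which does not show that both tissues changed alike.

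The titles give both tissues of a mouse the same number. With the mouse as a replicate block, 4 mRNAs alone and both ribosomal RNAs were called. The calls of mt-Co1 (edgeR adjusted p = 0.122) and mt-Nd5 (edgeR adjusted p = 0.0545) were lost under the block, and mt-Co3 was gained (edgeR adjusted p = 0.0209).

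Nuclear genes that serve the mitochondrial genome did not move as 1 group in gastrocnemius, where 18.3% of all genes were called lower and 19.6% higher. With library totals or TPM the balance of calls over all genes turned towards higher. Of all 14265 genes tested, 1662 were called lower and 3957 higher with library totals, and 1018 and 4473 with TPM. The counts of each list under those scalings are given too and stand beside these numbers. Of 20 genes of transcription and maintenance, 2 fell and 1 rose, and their median log2 change was 0.10. With library totals 1 was called lower and 4 higher, and with TPM 1 lower and 6 higher. Mterf2, a protein of the mitochondrial termination factor family, had 3.77 ± 0.480 CPM in cachectic and 9.43 ± 1.61 CPM in normal muscles (SD, n = 3 each), a change of -1.33 (edgeR adjusted p = 0.00124). Tfam, which packages the genome and starts its transcription, had 21.9 ± 2.44 CPM in cachectic and 30.4 ± 1.504 CPM in normal muscles, a change of -0.47 (edgeR adjusted p = 0.0179). Tfb2m, the promoter-melting factor, rose by 0.33 (edgeR adjusted p = 0.0474), and Polrmt stood at 0.35 without passing (edgeR adjusted p = 0.0798). The call of Tfam was lost with library totals, with TPM and without cachectic mouse 1, normal mouse 2 or normal mouse 3. That of Tfb2m was lost without any 1 library but cachectic mouse 3, with RLE size factors, without the filter and with the replicate block.

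Of 31 tested genes of RNA processing, modification and decay, 5 fell and 5 rose. With library totals 1 was called lower and 8 higher, and with TPM 0 were called lower by limma and 11 higher. Ptcd1, a pentatricopeptide protein of leucine transfer RNA processing, rose to 26.3 ± 4.98 CPM in cachectic muscles, against 9.68 ± 1.39 CPM in normal muscles, a change of 1.44 (edgeR adjusted p = 0.000739). Elac2, which cuts the 3′ end of transfer RNAs out of the precursor, rose by 0.84 (edgeR adjusted p = 0.00116), and Ptcd2, needed for cytochrome b mRNA maturation, by 0.68 (edgeR adjusted p = 0.00593). Lrpprc, which with Slirp stabilises the mitochondrial mRNAs, had 50.9 ± 3.47 CPM in cachectic and 70.9 ± 6.81 CPM in normal muscles, a change of -0.48 (edgeR adjusted p = 0.0166). Library totals and TPM ended this call, as did leaving out cachectic mouse 1 or normal mouse 3. Slirp stood at -0.36 and was not called (edgeR adjusted p = 0.306).

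Of 13 translation factors 3 fell and none rose by edgeR, with a median of -0.28. With library totals 1 was called lower and 1 higher, with a median of -0.08 against 0.20 for all genes. With TPM 1 was called lower and 2 higher, with a median of 0.10 against 0.28 for all genes. The median of the list turned its sign with TPM and stayed below that of all genes under each of these scalings. Taco1, the activator of mt-Co1 translation, had 6.61 ± 1.59 CPM in cachectic and 22.1 ± 3.58 CPM in normal muscles, a change of -1.74 (edgeR adjusted p = 0.000654). Mtrf1l, a release factor, fell by 0.68 (edgeR adjusted p = 0.0190) and Mtif2, the initiation factor, by 0.46 (edgeR adjusted p = 0.0243); both calls were lost with library totals, with TPM and without cachectic mouse 1 or normal mouse 3, and that of Mtif2 also without normal mouse 1. Of 22 charging genes 6 fell and 3 rose. Gars rose by 0.96 (edgeR adjusted p = 0.000698) and Kars by 0.64 (edgeR adjusted p = 0.00407); each charges transfer RNAs in the cytosol as well as in mitochondria. Lars2, which charges mitochondrial leucine transfer RNA, had 117 ± 4.36 CPM in cachectic and 182 ± 18.1 CPM in normal muscles, a change of -0.63 (edgeR adjusted p = 0.00585) that was not called with library totals or TPM. With either of these scalings, none of the 22 charging genes was called lower and 3 were called higher.

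Among 15 regulators of mitochondrial biogenesis 3 fell and 4 rose. With library totals 2 were called lower and 6 higher, and with TPM 1 lower and 6 higher. Nrf1, a nuclear activator of respiratory genes, rose by 1.03 (edgeR adjusted p = 0.000735). Sirt3, the mitochondrial deacetylase, had 4.31 ± 1.26 CPM in cachectic and 11.1 ± 2.37 CPM in normal muscles, a change of -1.36 (edgeR adjusted p = 0.00336), and the coactivator Ppargc1b fell by 0.74 (edgeR adjusted p = 0.00337), a call lost with TPM. Its relative Ppargc1a stood at -0.47 with overlapping groups and was not called (edgeR adjusted p = 0.333). Of 14 chaperones and proteases of the organelle 2 rose: Clpp, a matrix protease, by 0.85 (edgeR adjusted p = 0.00489), and Hspa9, the matrix Hsp70, by 0.69 (edgeR adjusted p = 0.0158), a call lost without normal mouse 1 or 2. Of these 14 genes, 5 were called higher with library totals and 7 with TPM.

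In hypothalamus few genes of these lists were called, where 8.77% of all genes were. None of 32 RNA processing genes and none of 22 charging genes was called by edgeR. Of 20 transcription and maintenance genes 2 fell, Mterf4 by 0.29 (edgeR adjusted p = 0.0362) and the exonuclease gene Mgme1 by 0.43 (edgeR adjusted p = 0.0459), and each of these calls was lost with any 1 library left out, with library totals and with TPM. Of the translation factors 1 rose, the elongation factor gene Guf1 by 0.41 (edgeR adjusted p = 0.0109). Of the biogenesis regulators 2 fell, the coactivator Pprc1 by 0.51 (edgeR adjusted p = 0.00808) and Gabpa, a subunit of a transcription factor of respiratory genes, by 0.29 (edgeR adjusted p = 0.0424). Of the chaperones and proteases the matrix chaperonin Hspe1 fell by 0.42 (edgeR adjusted p = 0.0135) and its partner Hspd1 by 0.31 (edgeR adjusted p = 0.0357), while the protease gene Spg7 rose by 0.30 (edgeR adjusted p = 0.0160). The call of Gabpa was lost without any 1 library but cachectic mouse 3, that of Hspd1 without any but normal mouse 1, that of Hspe1 without cachectic mouse 1 or normal mouse 2, and that of Spg7 without cachectic mouse 1. The replicate block also ended the calls of Mterf4, Mgme1 and Gabpa. DESeq2 ended that of Mgme1, and library totals or the minimum of 1 CPM in 3 libraries that of Gabpa. With TPM, Guf1 was the 1 gene of the 6 lists that limma called in hypothalamus. Over all 17961 genes tested there, limma called 275 lower and 245 higher. Tfam, Tfb2m, Polrmt, Lrpprc, Slirp and Ppargc1a lay between -0.10 and 0.13 and none was called by edgeR.

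Markers of other cell types moved beside these results. Over all genes, 18.3% were called lower and 19.6% higher in gastrocnemius, and 4.83% lower and 3.94% higher in hypothalamus. In gastrocnemius all 6 tested neutrophil markers of 8 listed rose, with a summed level of 45.7 to 257 CPM in cachectic and 0.984 to 1.35 CPM in normal muscles, 2 of the 8 at 0 in every normal muscle. All 5 erythroid markers rose, to 838 to 913 CPM in cachectic against 198 to 381 CPM in normal muscles. Fibroblast markers fell, 6 of 7, at 377 to 510 CPM in cachectic against 795 to 1344 CPM in normal muscles, as did 5 of 6 adipocyte markers, at 113 to 146 CPM against 185 to 214 CPM, cachectic first. Fibre types differ in mitochondrial content, and their summed markers overlapped: 2353 to 9583 CPM in cachectic against 2671 to 6291 CPM in normal muscles for 6 oxidative fibre genes, and 40740 to 87290 CPM against 65670 to 96220 CPM, cachectic first, for 6 glycolytic ones, with 1 of 6 lower in each list. Of 6 endothelial markers in gastrocnemius 2 fell and 1 rose. The 5 skeletal muscle genes, 2 of them called lower, summed to 47290 to 56170 CPM in cachectic against 61090 to 79910 CPM in normal muscles. In hypothalamus 5 of 6 tested neutrophil markers rose, at 39.5 to 132 CPM in cachectic against 4.44 to 5.80 CPM in normal mice. All 5 erythroid markers rose there, at 560 to 718 CPM in cachectic against 240 to 378 CPM in normal mice, and 4 of 5 oligodendrocyte markers fell, at 2790 to 3094 CPM in cachectic against 4165 to 4631 CPM in normal mice. Also in hypothalamus, 2 of 5 astrocyte markers and 1 of 6 neuron markers fell, and 1 of 5 microglia markers rose. Of 6 endothelial markers there, 1 rose and 1 fell. The part of these cell types in the changes of the mitochondrially encoded genes was not tested.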

How the data were processed

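Per the submitters' processing notes, reads were trimmed with Trim Galore 0.6.6, aligned with STAR 2.7.9a to GRCm38 and counted with RSEM 1.3.3; the annotation release, strand setting and handling of reads with several targets are not given in the sources used here. The authors deposited expected counts, TPM and the length and effective length of each gene per library, and all 3 were used. Per the labels, libraries were directional mRNA libraries read as paired 100-base reads. Expected counts were rounded to whole numbers. GENCODE M21 named 52135 of 55416 gene identifiers, which held 99.6% of counts. Near-identical copies were found with BLAST 2.17.0, aligning at least 80 bases at 90% identity and counted as near-identical at 99%. edgeR 4.0.16 (filterByExpr, TMM scaling, quasi-likelihood test, Benjamini-Hochberg over all genes tested, threshold 0.05) was run in R 4.3.3 on the 6 libraries of each tissue, and on all 12 for the difference between tissues. Mean fragment length was taken as length minus effective length plus 1. The alternatives were RLE size factors, library totals, scaling without mt- genes, no filter, a minimum of 1 CPM in 3 libraries, DESeq2 1.42.0, limma 3.58.1 on log2(TPM + 0.5), a replicate block, each library left out, and nuclear copies added. Tests were checked on simulated data. Replicates are separate mice, 3 per group, and the numbers in the titles pair the 2 tissues of a mouse; deviations from the group means correlated at -0.079 to 0.114 over those pairs. Every pair of libraries within a group differed by more than sampling noise. All 13 mRNA and 2 ribosomal RNA genes were named whatever they showed, with up to 3 called genes of each nuclear list and 6 fixed nuclear genes. The members, the nuclear lists and the marker lists were chosen with earlier results of these data known.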

Additional observations from a re-analysis of the deposited data

Results flagged for a closer look

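For 7 genes the cachectic change differed between gastrocnemius and hypothalamus by edgeR's test of the difference, with an adjusted p below 0.05. Of all 18746 genes tested, 26.4% were called in this contrast and 14.0% were called lower. Each difference is the gastrocnemius change minus the hypothalamus change in log2 units. The ribosomal RNA gene mt-Rnr1 differed by -1.11, with changes of -1.27 in gastrocnemius and -0.18 in hypothalamus. mt-Rnr2 differed by -0.99, with changes of -0.91 and 0.07 in the same order of tissues. mt-Co1 differed by -0.84, with changes of -0.92 and -0.10. mt-Co2 differed by -1.26, with changes of -1.44 and -0.20, and with its nuclear copy added the difference was -0.78 and no longer called. mt-Nd3 differed by -1.38, with changes of -1.11 and 0.26. mt-Nd4l differed by -1.21, with changes of -1.31 and -0.11, and lost its call with the copy added. mt-Nd5 differed by -0.92, with changes of -0.99 and -0.09. In all 12 tests with 1 library left out edgeR called mt-Rnr1, mt-Rnr2, mt-Co2 and mt-Nd4l, without copies added. mt-Nd5 was called in 9 of 12, mt-Co1 in 7 and mt-Nd3 in 3. With the mouse as a replicate block mt-Co1 and mt-Nd5 lost their calls. With TPM and limma mt-Co1, mt-Nd3 and mt-Nd5 lost theirs.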

How the results depend on the processing

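In gastrocnemius all 13 mRNAs were below 0 under all alternatives, and 11 were called lower in the first test, 2 with TPM, 2 to 10 with 1 library left out and 1 to 11 with copies added and 1 library left out. In hypothalamus 2 were called lower, against 4 without the filter, 0 with TPM (limma, where none of the 13 was called), 1 with copies added, 0 to 2 with 1 library left out, and 0 to 1 with copies added and 1 left out; 0 were called higher, against 2 without the filter and 0 to 1 with 1 library left out. In the difference between tissues 5 were called, against 10 without the filter, 9 by DESeq2, 2 with TPM and 2 to 9 with 1 library left out. That count was 3 without cachectic hypothalamus 1, 8 without cachectic gastrocnemius 2, 2 without cachectic hypothalamus 3, 3 without normal hypothalamus 1, 9 without normal gastrocnemius 2 and 2 without normal hypothalamus 2. The causes were not tested.

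Directions turned for a few genes that were not called. In hypothalamus these were mt-Atp8 (0.0258), mt-Nd4l (0.14) and Slirp (0.14) with TPM, and mt-Co3 (-0.0649) with copies added (-0.0673, -0.0221 and -0.0841 with cachectic mouse 1, 2 or 3 also left out, and -0.0426, -0.0884 and -0.0547 with normal mouse 1, 2 or 3). With 1 library left out, mt-Nd4l ranged over -0.222 to 0.0911, Polrmt over -0.0994 to 0.0686 and Slirp over -0.122 to 0.0009. In the difference between tissues mt-Nd6 turned to 0.0682 with TPM.

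Cachectic and normal mice are different animals, so replicate numbers do not pair them by design. Same-numbered mice correlated at -0.096 to 0.17, and 4 of 6 gastrocnemius and 1 of 6 hypothalamus libraries matched best with their own number. These values cannot show whether same-numbered mice shared a step of processing. With the numbers as a replicate block, 12 mRNAs were called lower in gastrocnemius and 2 in hypothalamus. Over all genes, library totals turned the hypothalamus calls from 867 lower and 708 higher to 647 and 882, and those of the difference between tissues from 2629 and 2323 to 1634 and 3238, or 868 and 4081 with TPM. At this library type and depth the 22 transfer RNAs could not be measured.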

Other observations

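TPM gives mt-Atp8 a place that its counts do not. Its effective length was 6.68 to 20.4 bases over the 12 libraries. Without copies it held 29.3 to 38.8% of the TPM of the 13 mRNAs, against 0.427 to 1.04% of their counts. Its share of their counts with copies was 0.261 to 0.657%. The TPM of mt-Atp8 was 48291 to 71778 in cachectic and 79097 to 91773 in normal gastrocnemius, and 42516 to 48056 in cachectic and 43696 to 46124 in normal hypothalamus.

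Hypothalamus held more mitochondrial ribosomal RNA relative to mRNA than muscle. There were 24.3, 24.1 and 25.0 ribosomal RNA counts per 100 counts of the 13 mRNAs in cachectic and 21.4, 24.7 and 22.3 in normal hypothalamus, where no gastrocnemius library exceeded 9.32.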
